A study of Mus musculus with 18 samples.

Results

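The 10 genes described here encode the main heat shock proteins of the cytosol and of the mitochondrial matrix: Hspa1a, Hspa1b, Hspa8, Hsp90aa1, Hsp90ab1, Hsph1, Dnajb1, Hspb1, Hspd1 and Hspe1. They were taken by name from a table of 51499 loci, and no locus held more than 1 of them. Of the 51499 loci, 11929 averaged 1 FPKM or more over the 6 groups of the study, and 9 of the 10 genes were among them. FPKM counts sequenced fragments per length of transcript, scaled to the mapped fragments of the library, and is thus a level per unit of length, so that levels of different genes can be set side by side. Hspa1a, with a mean of 0.637 FPKM, did not reach that minimum and is given by its levels and differences, outside the counts.

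Heat shock proteins keep other proteins folded, and cells raise many of them through heat shock factor 1 when unfolded protein builds up in the cytosol. HSP70 proteins bind short exposed stretches of unfolded chains and are driven by J-domain partners such as Dnajb1 and by nucleotide exchange factors such as Hsph1, while HSP90 proteins act later on nearly folded clients, among them kinases, steroid receptors and Argonaute proteins. Small heat shock proteins hold unfolded chains without using ATP, and Hspd1 with its lid Hspe1 forms the folding chamber of the mitochondrial matrix. The endoplasmic reticulum (ER) has its own chaperones, which answer to the unfolded protein response instead.

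The samples were mouse embryonic fibroblast lines labelled Ago2+/+ or Ago2-/-, where Ago2 encodes the Argonaute protein that cleaves RNA targets of small RNAs. Cells were grown for 3 d and then given the solvent DMSO, tunicamycin or 500 nM thapsigargin. Per the methods, tunicamycin was used at 3 µg/ml and both agents for 6 h. Tunicamycin blocks N-linked glycosylation and thapsigargin blocks the calcium pump of the ER, so that both agents load the ER with unfolded protein. Each of the 6 groups had 3 libraries of total RNA (18 in all), and the table holds the authors' single value for each group. The lines were not authenticated, age and strain were not given in the sources used here, and the 3 libraries of a group are described as biological replicates, with no word on separate cultures in the labels. With 1 value a group there is no replicate spread, no SD and no test, so every comparison below sets 2 values side by side, and whether neighbouring levels differ beyond replicate error cannot be judged. Sequencing depth is unknown, since the table gives no counts.

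The group labels carried problems that touch every comparison. Libraries titled DCR1 were labelled Ago2+/+, and 4 of the 18 libraries had 2 genotype labels that contradicted each other. Ago2 itself, the targeted gene, had 22.1, 5.75 and 17.01 FPKM under the Ago2+/+ label (DMSO, tunicamycin, thapsigargin) and 5.61, 15.5 and 20.7 FPKM under the Ago2-/- label (same order). The level of the targeted gene thus did not follow the genotype labels. It was lower under the Ago2-/- label with DMSO, but higher with tunicamycin and, by less, with thapsigargin. The low values, 5.75 and 5.61 FPKM, were those of Ago2+/+ tunicamycin and Ago2-/- DMSO. The study's reporting summary states that absence of the protein from the Ago2-/- line was checked by western blot. The part of the gene that was deleted was not given in the sources used here. Below, a group is therefore "the group labelled" with its genotype and agent even where the shorter name is used. Whether group names were exchanged before the table was made cannot be settled from it, and if they were, every agent and genotype named below would change with them. Of the 15 pairs of groups, 3 were close, with 0.998% (Ago2+/+ thapsigargin and Ago2-/- tunicamycin), 1.04% (Ago2+/+ tunicamycin and Ago2-/- DMSO) and 1.87% (Ago2+/+ DMSO and Ago2-/- thapsigargin) of the 11929 loci differing at least 2-fold, and the other 12 pairs ran from 12.9% to 17.9%. Each close pair crossed both the genotype label and the agent. Of 11 fibroblast markers 8 passed the minimum, and all 8 had a 2-fold range over the 6 groups, with a median range of 3.20. Vim stood at 952 to 2634 FPKM, but Thy1 was listed at 0 in all 6 groups and Lum stood at or below 0.0138 FPKM. The summed level of the 11 ran from 2999.6 to 3955.8 FPKM, and the summed markers of leukocytes, epithelium and endothelium reached at most 2.36, 1.34 and 0.465 FPKM. The fibroblast sum was more even than its members. S100a4, whose locus holds 3 genes, ran from 285 to 1967 FPKM, Col1a1 from 5.97 to 651 FPKM and Pdgfra from 0.488 to 8.72 FPKM. In Ago2+/+ DMSO, Vim (1439 FPKM) and S100a4 (1967 FPKM) made up most of the sum.

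Within a close pair the median size of the difference, sign ignored, over the 10 heat shock genes was 0.24, 0.04 and 0.11 in log2(FPKM + 1). The order is that given above, and the values for all loci were 0.11, 0.08 and 0.15. None of the 10 differed 2-fold, and the largest single difference was 0.33 (Hspd1, between Ago2+/+ thapsigargin and Ago2-/- tunicamycin). Over the other 12 pairs the median size ran from 0.30 to 0.89, against 0.33 to 0.43 for all loci. The medians given further below keep the sign and cover the 9 genes that passed the minimum. In the order of the 6 levels, the 2 groups of each close pair stood next to each other for 6 of the 9 genes that passed the minimum, and for Hspa1a, against 50.0% of all 11929 loci, so this was near the background. The exceptions were Hspa8, Hsp90aa1 and Hsp90ab1. A treatment and a genotype therefore cannot be told apart from the pairing of the groups in any value below.

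**Figure D1:**
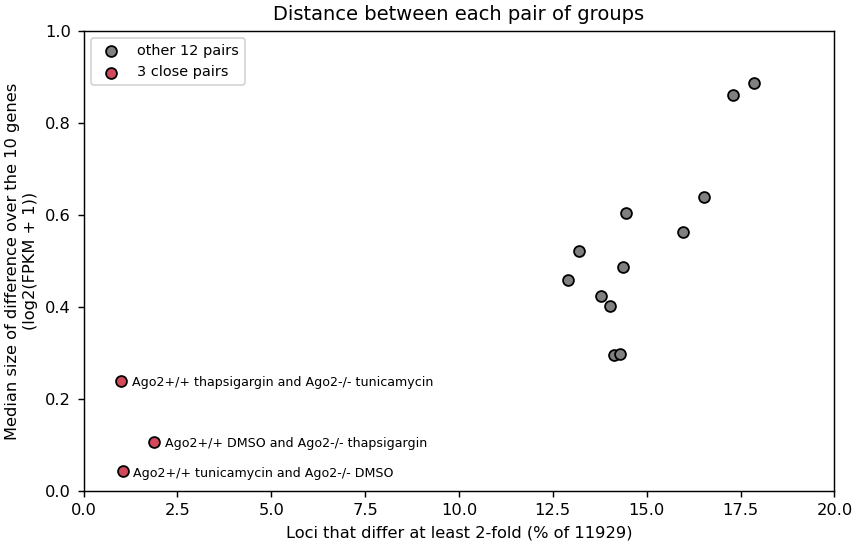
Each of the 15 points is a pair of groups. The horizontal axis gives the percent of 11929 loci that differ at least 2-fold and the vertical axis the median size of the difference over the 10 heat shock genes in log2(FPKM + 1). The 3 close pairs sit at 0.998% to 1.87% and at medians of 0.04 to 0.24, and the other 12 pairs at 12.9% to 17.9% and 0.30 to 0.89.

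Together the 10 genes held between 0.708% (Ago2-/- tunicamycin) and 0.971% (Ago2-/- DMSO) of all FPKM in a group. Per length, Hsp90ab1 and Hspa8 had the highest levels (means of 1727 and 1574 FPKM), followed by Hsp90aa1 (617), Hspd1 (547), Hspe1 (351), Hsph1 (89.0), Hspb1 (56.3), Dnajb1 (23.7) and the inducible HSP70 genes Hspa1b (6.01) and Hspa1a (0.637). Hsp90ab1 and Hspa8 stood at the 99.8 and 99.7 percentiles of the 11929 loci by mean level. The range over the 6 groups, highest minus lowest log2(FPKM + 1), was at least 1 (2-fold) for 4 of the 9 genes that passed the minimum, Hspb1, Hspa1b, Hspd1 and Hspe1, against 32.3% of the 11929 loci. Their median range was 0.85, and that of all loci 0.73. Hspb1, with a range of 6.68, stood at the 99.7 percentile of all loci, and the other 8 genes that passed at the 82.8 percentile or below.

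**Figure D2:**
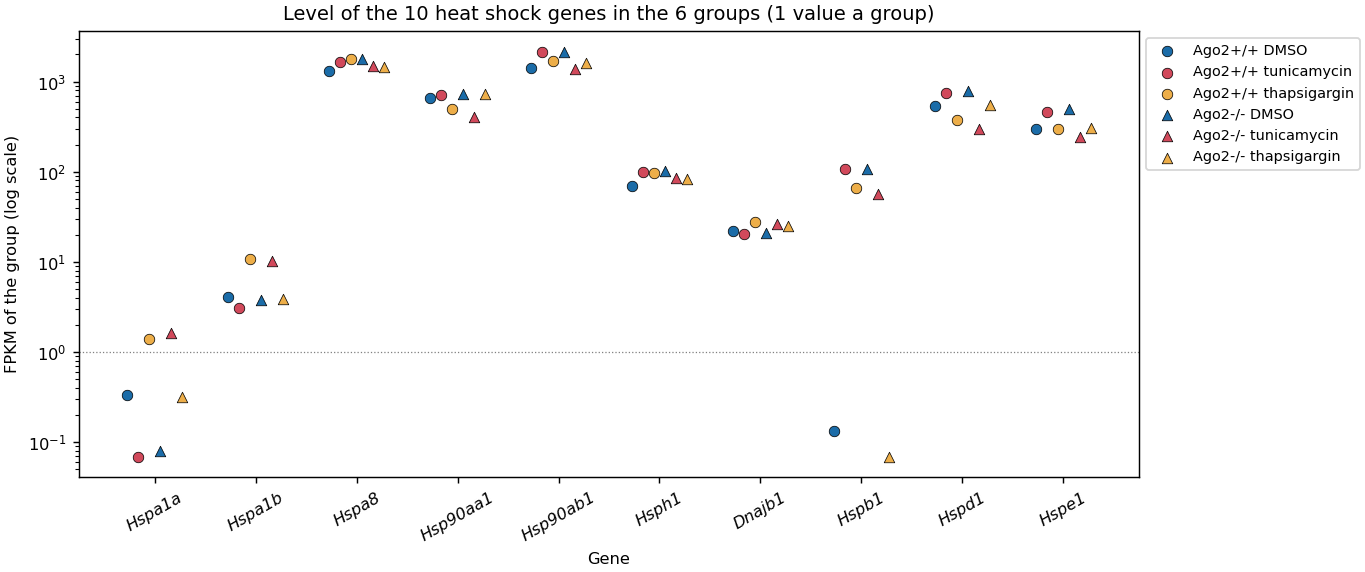
FPKM of each of the 10 genes on a logarithmic axis, 1 point for each of the 6 groups (circles, labelled Ago2+/+, triangles, labelled Ago2-/-, with blue for DMSO, red for tunicamycin and orange for thapsigargin), and a dotted line at 1 FPKM. Hspb1 lies at 0.135 and 0.0687 FPKM in Ago2+/+ DMSO and Ago2-/- thapsigargin and at 56.1 to 108 FPKM elsewhere, and the other genes keep within a narrower band.

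Hspa8, the constitutive HSP70 of the cytosol (GRCm38 chr9:40800984-40810087, plus strand), was among the steadiest of the 10 genes. It stood at 1298, 1657 and 1786 FPKM in the Ago2+/+ groups with DMSO, tunicamycin and thapsigargin, and at 1779, 1488 and 1440 FPKM in the Ago2-/- groups. The highest level was 1.38 times the lowest, and no comparison reached 2-fold. It made up 99.2% to 99.8% of the summed FPKM of Hspa8, Hspa1a and Hspa1b in every group. The Hspa8 locus also holds 3 small nucleolar RNA genes by the table's Ensembl names, and of the windows of 40 bases along its longest coding transcript 75.3% occur unchanged in transcripts of other genes, mostly Gm15459, so that fragments could be split between loci.

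Hsph1, the HSP110 protein that releases nucleotide from HSP70 (chr5:149614287-149636376, minus strand), moved with Hspa8. It stood at 69.8, 98.0 and 96.3 FPKM in the Ago2+/+ groups with DMSO, tunicamycin and thapsigargin and at 101, 84.8 and 83.8 FPKM in the Ago2-/- groups. The ratio of Hspa8 to Hsph1 stayed between 16.9 and 18.6 over the 6 groups. Dnajb1, the J-domain partner that hands substrates to HSP70 and is itself raised in the heat shock response (chr8:83608193-83612653, plus strand), had the smallest range of the 10 genes, 0.40. Its levels were 22.2, 20.6 and 27.5 FPKM in the Ago2+/+ groups and 20.9, 26.0 and 25.3 FPKM in the Ago2-/- groups, in the same order of agents. The 2 highest and 2 lowest of these values belonged to a close pair each, and the highest was 1.34 times the lowest.

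Hspa1a and Hspa1b, the stress-inducible HSP70 genes, are neighbours on the minus strand of chromosome 17 (chr17:34969190-34972156 and chr17:34956436-34959238), each with 1 exon. Their upstream sequences are shown because both genes moved the same way and are nearly the same in sequence. The 250 bases before each start site, from RefSeq windows on GRCm38.p6 (chr17:34972157-34972406 and chr17:34959239-34959488, both read on the minus strand), differ at 3 positions, which are in capitals, and are 98.8% identical.
Hspa1a: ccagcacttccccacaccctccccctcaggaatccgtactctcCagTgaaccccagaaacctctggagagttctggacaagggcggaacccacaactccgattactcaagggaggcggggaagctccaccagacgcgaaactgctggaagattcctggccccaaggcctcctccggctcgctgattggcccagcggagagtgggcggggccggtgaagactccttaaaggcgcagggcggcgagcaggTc
Hspa1b: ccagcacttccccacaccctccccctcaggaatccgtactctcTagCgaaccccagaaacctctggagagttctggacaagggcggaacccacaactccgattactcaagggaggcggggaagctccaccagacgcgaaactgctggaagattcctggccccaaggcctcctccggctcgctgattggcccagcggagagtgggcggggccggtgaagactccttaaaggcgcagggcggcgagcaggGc
Counted from 1 at the far upstream end, with the Hspa1a base first, the differences are C44T, T47C and T249G.

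Hspa1b stood at 4.09, 3.07 and 10.9 FPKM in the Ago2+/+ groups with DMSO, tunicamycin and thapsigargin, and at 3.81, 10.3 and 3.92 FPKM in the Ago2-/- groups. Ago2+/+ thapsigargin and Ago2-/- tunicamycin were high and the other 4 groups were low, with a gap from 4.09 to 10.3 FPKM. The level was 2.66 times that of DMSO with thapsigargin under the Ago2+/+ label and 2.69 times with tunicamycin under the Ago2-/- label. By contrast it was 0.751 times DMSO with tunicamycin in Ago2+/+ and 1.03 times with thapsigargin in Ago2-/-. Hspa1a followed the same split at lower levels, 0.337, 0.0683 and 1.41 FPKM in the Ago2+/+ groups and 0.0790, 1.61 and 0.320 FPKM in the Ago2-/- groups. Of the windows of 40 bases along each longest coding transcript, 63.1% for Hspa1a and 65.1% for Hspa1b occur in transcripts of other genes, nearly all in each other, so the share of each gene in these levels is uncertain. Their sum ran from 3.14 to 4.43 FPKM in the 4 low groups and reached 12.3 FPKM in Ago2+/+ thapsigargin and 11.9 FPKM in Ago2-/- tunicamycin. Even there Hspa8 was at least 145 times as high as Hspa1b.

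The same 2 groups stood apart in contractile genes. Acta2, the smooth muscle actin, stood at 1644 FPKM in Ago2+/+ thapsigargin and 1252 FPKM in Ago2-/- tunicamycin and at no more than 3.77 FPKM in the other 4 groups, and Tagln, an actin-binding protein of smooth muscle, at 648 and 444 FPKM against at most 2.90 FPKM. Of the 5 muscle markers, Myh11 and Myod1 stayed below 1 FPKM in all 6 groups, and Des, desmin, was not high there, with 0.397 and 0.499 FPKM against 2.95 and 2.58 FPKM in Ago2+/+ DMSO and Ago2-/- thapsigargin. The summed level of the 5, nearly all of it from Acta2 and Tagln, was 2292 and 1696 FPKM in those 2 groups against 2.43 to 8.71 FPKM elsewhere. Col1a1, a collagen chain on the fibroblast list, stood at 521 and 651 FPKM there against 5.97 to 112 FPKM elsewhere. The part of these differences between the groups in the levels of the inducible HSP70 genes was not tested.

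The HSP90 genes had different orders over the 6 groups. Hsp90aa1, the form of HSP90 that stress can raise (chr12:110690605-110702728, minus strand), stood at 665, 701 and 490 FPKM in the Ago2+/+ groups with DMSO, tunicamycin and thapsigargin and at 721, 403 and 726 FPKM in the Ago2-/- groups. It was lowest in the same 2 groups in which Hspa1b was highest. Hsp90ab1, the constitutive form (chr17:45567775-45573271, minus strand), stood at 1405, 2133 and 1709 FPKM in the Ago2+/+ groups and at 2152, 1371 and 1590 FPKM in the Ago2-/- groups, highest in the close pair Ago2-/- DMSO and Ago2+/+ tunicamycin. Neither gene reached a 2-fold range (0.85 and 0.65). The ratio of Hsp90ab1 to Hsp90aa1 was 2.11 in Ago2+/+ DMSO and 2.19 in Ago2-/- thapsigargin, 2.99 to 3.05 in the pair Ago2-/- DMSO and Ago2+/+ tunicamycin, and 3.40 to 3.49 in Ago2-/- tunicamycin and Ago2+/+ thapsigargin. For Hsp90aa1, 60.6% of the windows of 40 bases recur in other transcripts, mainly Gm12346, and for Hsp90ab1 8.22%.

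Hspb1, the small heat shock protein also called HSP25 in the mouse (chr5:135887919-135889563, plus strand), showed the largest difference of the 10 genes. It stood at 0.135, 108 and 65.2 FPKM in the Ago2+/+ groups with DMSO, tunicamycin and thapsigargin, and at 108, 56.1 and 0.0687 FPKM in the Ago2-/- groups. It was near 0 in Ago2+/+ DMSO and Ago2-/- thapsigargin, a close pair, and well above 1 FPKM in the other 4 groups. In log2(FPKM + 1) it was 6.59 higher with tunicamycin and 5.87 higher with thapsigargin than with DMSO under the Ago2+/+ label. Under the Ago2-/- label the differences had the opposite sign, -0.94 with tunicamycin and -6.67 with thapsigargin. Ratios of the FPKM values themselves would rest on levels near 0 and are not given. The nearest loci on either side that averaged 1 FPKM or more were Mdh2, 97521 bases away, and Ywhag, 18846 bases away. They did not share the pattern, with Mdh2 at 281 to 372 FPKM and Ywhag at 117 to 162 FPKM over the 6 groups. Of the 40-base windows of Hspb1, 54.2% recur in Hsp25-ps1. The 250 bases before its start site (RefSeq, GRCm38.p6, chr5:135887669-135887918, plus strand) are shown because the gene was on in some groups and off in others. Capitals mark the letters GAANNTTC, 2 facing units of a heat shock element, where N is any base.
Hspb1: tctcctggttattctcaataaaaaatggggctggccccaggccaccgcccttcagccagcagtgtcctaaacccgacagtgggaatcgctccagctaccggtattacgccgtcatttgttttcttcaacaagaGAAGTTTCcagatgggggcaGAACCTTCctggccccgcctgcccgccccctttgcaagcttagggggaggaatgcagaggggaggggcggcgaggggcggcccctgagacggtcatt
These letters, or the other orientation TTCNNGAA, occur in 15.1% of the 32851 promoter windows of 300 bases, so the match is no more than a description.

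Of the other small heat shock proteins, 3 of 7 passed the minimum. All 3 were past 2-fold in at least 1 of the 7 comparisons, against 30.5% of the 11929 loci. Hspb8, which works with Bag3 in selective autophagy, had the on and off groups of Hspb1, with 38.0, 43.4, 36.8 and 41.0 FPKM in Ago2+/+ tunicamycin, Ago2+/+ thapsigargin, Ago2-/- DMSO and Ago2-/- tunicamycin. It was listed at 0 in Ago2+/+ DMSO and stood at 0.0298 FPKM in Ago2-/- thapsigargin. Cryab, alpha B-crystallin, was instead high in another close pair, at 122 FPKM in Ago2+/+ tunicamycin and 96.9 FPKM in Ago2-/- DMSO, against 18.4 to 28.5 FPKM in the remaining groups. Hspb6 ran the other way, with 14.3 and 14.4 FPKM in that pair and 26.6 to 56.5 FPKM elsewhere. The pattern of Hspb1 and Hspb8, below 1 FPKM in Ago2+/+ DMSO and Ago2-/- thapsigargin and at least 10 FPKM in each of the other 4 groups, was met by 19 of the 11929 loci (0.159%), among them the chemokine gene Cxcl12, the collagen crosslinker Lox and Hoxb9, and the reverse by 7 loci. Cxcl12, Lox and Hoxb9 were named after their values were seen. Pdgfrb, a growth factor receptor on the fibroblast list, was low in the same 2 groups, at 0.540 and 0.799 FPKM against 7.84 to 17.9 FPKM in the other 4. The part of such differences between the groups in the levels of Hspb1 was not tested.

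**Figure D3:**
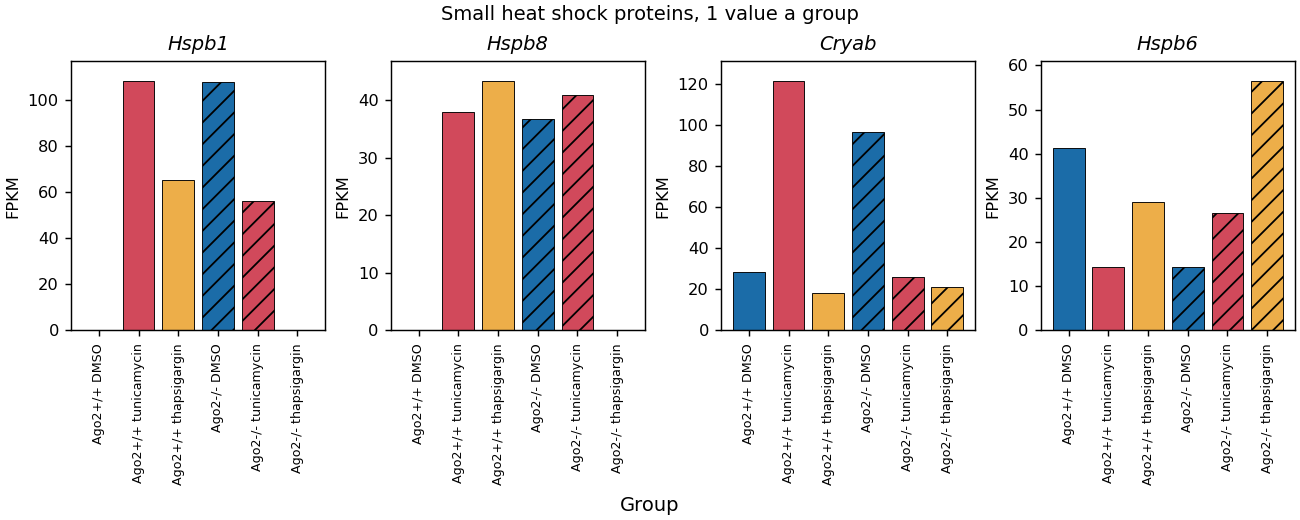
FPKM of the small heat shock protein genes Hspb1, Hspb8, Cryab and Hspb6 in the 6 groups, 1 bar for each group's value (plain bars, labelled Ago2+/+, hatched bars, labelled Ago2-/-). Hspb1 and Hspb8 have no visible bar in Ago2+/+ DMSO and Ago2-/- thapsigargin, where they stood at or below 0.135 FPKM, and Cryab stands highest in Ago2+/+ tunicamycin and Ago2-/- DMSO.

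Hspd1 and Hspe1, the mitochondrial chaperonin and its cochaperonin, lie head to head on chromosome 1. Hspd1 (chr1:55077835-55088243, minus strand) and Hspe1 (chr1:55088132-55091307, plus strand) overlap by 112 bases in the annotation. Use of strand in the counting was not given in the sources used here, and fragments from the overlap could then fall to either gene. The 250 bases before the start of Hspe1 (RefSeq, GRCm38.p6, chr1:55087898-55088147, plus strand) are shown because they lie upstream of Hspe1 and reach past an annotated start of Hspd1 on the opposite strand. Capitals mark overlapping matches to a heat shock element of 3 facing units, GAANNTTCNNGAA or its reverse complement TTCNNGAANNTTC.
Hspe1: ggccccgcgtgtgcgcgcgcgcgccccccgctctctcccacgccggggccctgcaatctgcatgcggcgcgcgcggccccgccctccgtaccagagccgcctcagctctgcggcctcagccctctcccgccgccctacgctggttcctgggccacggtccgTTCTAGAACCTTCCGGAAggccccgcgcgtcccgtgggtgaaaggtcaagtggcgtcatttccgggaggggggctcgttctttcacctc
The marked run (chr1:55088059-55088076) lies at positions -89 to -72 from this start and at -144 to -127 from a start of Hspd1 on the opposite strand. Of 32851 promoter windows, 198 (0.603%) hold such a match, and 3 of the 7 heat shock genes with a window do: Hspd1, Hspe1 and Hsph1. The 198 are windows and not genes, and the 7 genes have 10 windows, so the shares cannot be set against each other. Hspd1 and Hspe1 hold the same run, and the window at the other start of Hspd1 has no match. In Hsph1 the run is TTCTGGAAAGTTC (chr5:149636288-149636300), past the start site. The windows of Hspa1a, Hspa1b, Hspb1 and Dnajb1 do not hold these letters, which says nothing of more distant or less exact elements.

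Hspd1 stood at 541, 741 and 378 FPKM in the Ago2+/+ groups with DMSO, tunicamycin and thapsigargin, and at 776, 300.4 and 548 FPKM in the Ago2-/- groups. Hspe1 stood at 300.2, 457 and 299 FPKM in the Ago2+/+ groups and at 499, 240.3 and 309 FPKM in the Ago2-/- groups. Both genes had the same order over the 6 groups, from Ago2-/- DMSO and Ago2+/+ tunicamycin at the top, through Ago2-/- thapsigargin and Ago2+/+ DMSO, to Ago2+/+ thapsigargin and Ago2-/- tunicamycin at the bottom. Under the Ago2-/- label, the level with tunicamycin was 0.387 times that with DMSO for Hspd1 and 0.481 times for Hspe1. Under the Ago2+/+ label it was 1.37 and 1.52 times that with DMSO. With thapsigargin the ratios to DMSO were 0.698 and 0.996 in Ago2+/+, and 0.706 and 0.619 in Ago2-/-. The ratio of Hspe1 to Hspd1 varied less than either gene, from 0.555 to 0.800, and was highest where both genes were lowest. Of the 40-base windows, 49.6% of Hspd1 and 41.8% of Hspe1 recur in other transcripts, mostly Hspd1-ps3 and AC117239.2.

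Other mitochondrial chaperones shared that order in part. Hspa9, the HSP70 of the matrix, had 552, 595 and 362 FPKM in the Ago2+/+ groups and 649, 326 and 532 FPKM in the Ago2-/- groups, with a range of 0.99. Lonp1, the ATP-driven protease of the matrix, had 144, 182 and 107 FPKM, and 189, 105 and 154 FPKM. Hspa9 and Lonp1 were named after their values were seen. Of the 10 further mitochondrial chaperones and proteases that passed the minimum, none was past 2-fold in any of the 7 comparisons (30.5% of all loci were in at least 1), with ranges from 0.08 (Clpx, which unfolds substrates for the protease Clpp) to 0.84, and 5 had their 2 lowest levels in Ago2+/+ thapsigargin and Ago2-/- tunicamycin, against 23.8% of all loci.

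**Figure D4:**
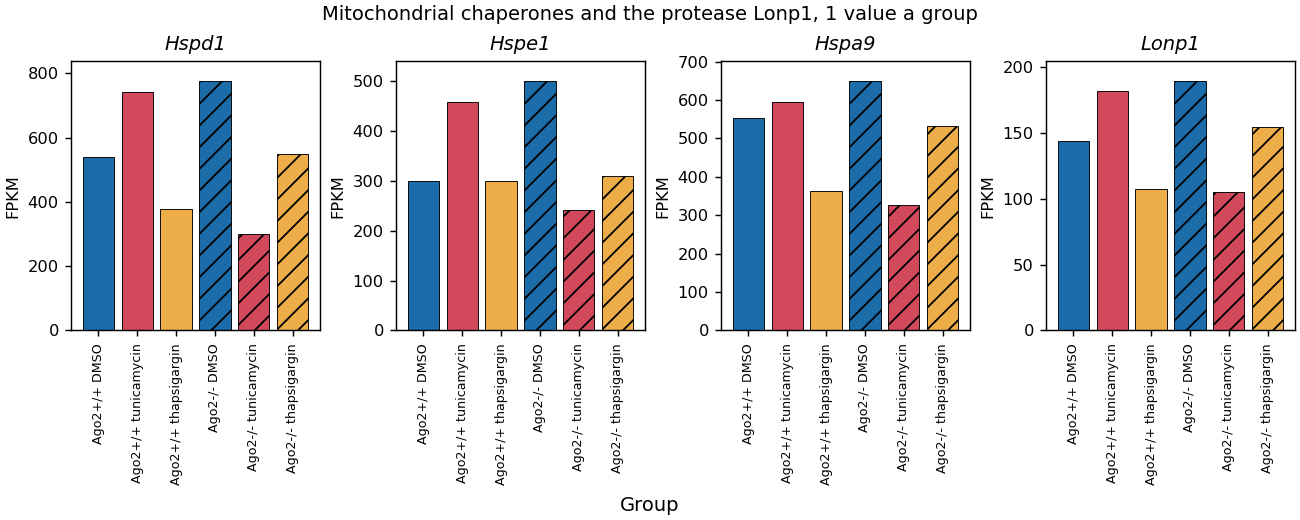
FPKM of Hspd1, Hspe1, Hspa9 and Lonp1 in the 6 groups, 1 bar for each group's value (plain bars, labelled Ago2+/+, hatched bars, labelled Ago2-/-). All 4 genes are highest in Ago2-/- DMSO, at 776, 499, 649 and 189 FPKM, and lowest in Ago2-/- tunicamycin, at 300.4, 240.3, 326 and 105 FPKM.

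Set against their DMSO group, the 9 genes that passed the minimum were past 2-fold in 1 to 3 cases a comparison. With tunicamycin under the Ago2+/+ label 1 of 9 was past 2-fold, Hspb1, which was higher, against 14.0% of the 11929 loci, and the median difference was 0.45 against 0.01 for all loci. With thapsigargin under that label 2 of 9 were higher, Hspb1 and Hspa1b, against 12.9% of loci in either direction, with a median of 0.30. With tunicamycin under the Ago2-/- label Hspa1b was higher and Hspd1 and Hspe1 were lower, 3 of 9 against 17.9% of loci, with a median of -0.65. Hspa1a differed there by 1.27 in log2(FPKM + 1). With thapsigargin under the Ago2-/- label 1 of 9 was lower, Hspb1, against 14.3% of loci, with a median of -0.30. The tunicamycin and thapsigargin comparisons of a genotype share their DMSO group, so they are not independent of each other.

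Between the genotype labels, 1 of 9 was past 2-fold with DMSO, Hspb1, higher in Ago2-/-, against 14.4% of loci, and the median difference was 0.52. With tunicamycin Hspa1b was higher and Hspd1 lower in Ago2-/-, 2 of 9 against 17.3% of loci, with a median of -0.64, and Hspa1a differed by 1.29. Given thapsigargin, Hspb1 and Hspa1b were lower in Ago2-/-, 2 of 9 against 13.8% of loci, with a median of -0.11. The remaining members, Hspa8, Hsp90aa1, Hsp90ab1, Hsph1 and Dnajb1, were those past 2-fold in none of the 7 comparisons, and their largest difference was -0.84 (Hsp90aa1, tunicamycin against DMSO under the Ago2-/- label).

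**Figure D5:**
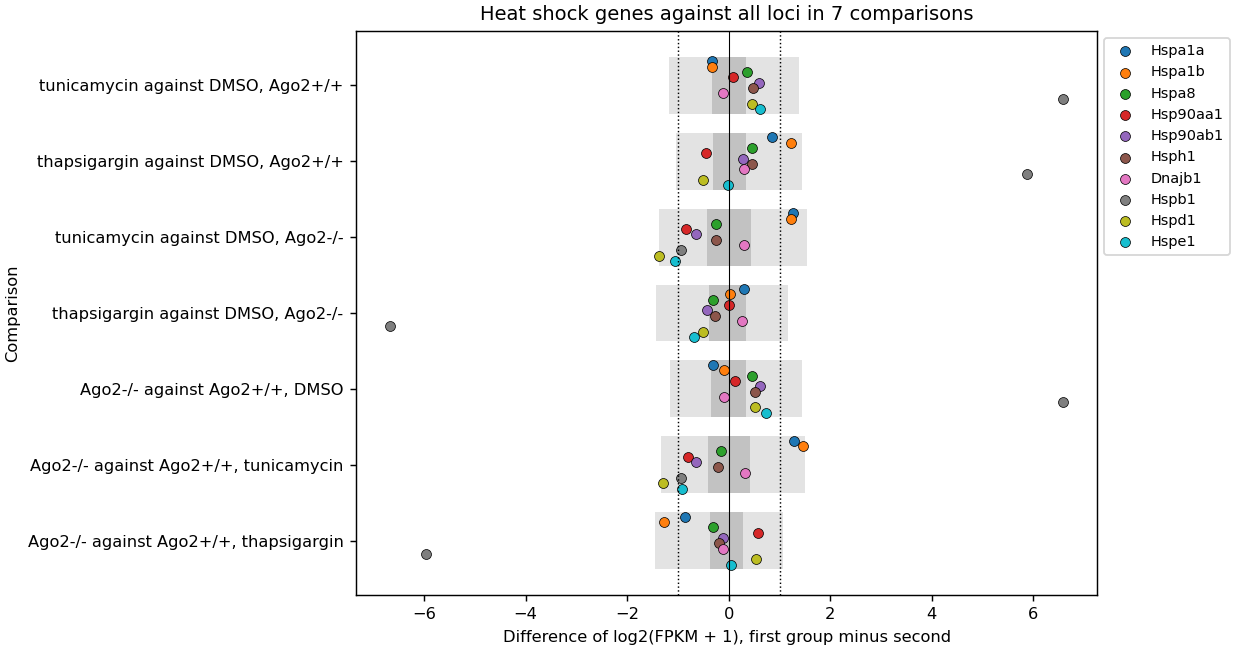
Difference in log2(FPKM + 1), first group minus second, for the 10 genes in the 7 comparisons (points), with the middle 50% (dark grey) and middle 90% (light grey) of 11929 loci and dotted lines at 2-fold. Hspb1 lies outside the light bar in 5 comparisons, from -6.67 to 6.59, and the points of the other 9 genes lie within it.

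Among the partners and relatives of these proteins, none of the 9 nucleotide exchange factors and BAG proteins (ranges of 0.30 for Bag5 to 0.72), of the 12 HSP90 cochaperones (0.17 for Stip1, which bridges HSP70 and HSP90, to 0.99), of the 14 subunits of the chaperonin TRiC and of prefoldin (0.35 for Pfdn6 to 0.88) or of the 31 constitutive proteasome subunits (0.09 for Psma4 to 0.78) was past 2-fold in any comparison, against 30.5% of all loci in at least 1. Of the 13 further J-domain proteins 1 was past 2-fold in any comparison, Dnaja4, in 5 comparisons. It had the on and off groups of Hspb1, with 4.60, 7.62, 4.57 and 8.06 FPKM in the 4 groups where Hspb1 was on and 0.0506 and 0.00480 FPKM in Ago2+/+ DMSO and Ago2-/- thapsigargin. Dnaja3, a mitochondrial J-domain protein, had the smallest range, 0.26.

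Of the 7 other HSP70 and HSP110 genes that passed, 3 were past 2-fold in at least 1 comparison, against 30.5% of all loci. Hspa4l, an HSP110 relative of Hsph1, stood at 27.8 FPKM in Ago2+/+ thapsigargin and 23.3 FPKM in Ago2-/- tunicamycin against 78.6 to 109 FPKM in the other groups, the reverse of Hspa1b. Hspa12b, a distant HSP70 relative, stood at 0.00859 and 0.0424 FPKM in Ago2+/+ tunicamycin and Ago2-/- DMSO and at 1.60 to 3.62 FPKM elsewhere. Hspa13, an HSP70 relative of the microsomes, reached 2-fold in 1 comparison, with 18.8 FPKM in Ago2-/- thapsigargin and 42.5 FPKM in Ago2+/+ thapsigargin. Hspa4, an HSP110 protein that serves HSP70 as exchange factor, had the smallest range, 0.24. Hsf1, the main activator of heat shock genes, stayed between 47.3 and 65.5 FPKM, while Hsf4 stood at 4.18 and 4.33 FPKM in Ago2+/+ thapsigargin and Ago2-/- tunicamycin and at 0.315 to 1.504 FPKM elsewhere. Hsbp1, which binds and restrains Hsf1, had the smallest range of the 4 genes on that list, 0.29.

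The chaperones of the ER lumen, the compartment that both agents target, are given for comparison. Of 15 genes, 6 were past 2-fold in at least 1 comparison (30.5% of all loci), and the largest count in a comparison was 5, all lower in Ago2-/- than in Ago2+/+ with thapsigargin, where 13.8% of all loci were past 2-fold in either direction. With thapsigargin against DMSO, 3 were higher and 0 lower under the Ago2+/+ label (12.9% of all loci). Under the Ago2-/- label 0 were higher and 4 lower (14.3%), the opposite direction for the same agent. With tunicamycin against DMSO, 1 was higher in Ago2+/+ (14.0%) and 0 were past 2-fold in Ago2-/- (17.9%). Dnajc3 stood at 109.5 FPKM in Ago2+/+ thapsigargin and 117.7 FPKM in Ago2-/- tunicamycin against 21.5 FPKM in Ago2-/- thapsigargin, and Creld2 at 430.0, 466.8 and 102.2 FPKM in the same groups. In Ago2+/+ DMSO and Ago2-/- DMSO, Dnajc3 stood at 45.6 and 67.2 FPKM and Creld2 at 210.5 and 321.2 FPKM. Hspa5 went from 4808 FPKM with DMSO to 5367 FPKM with thapsigargin in Ago2+/+, and from 7682 to 3677 FPKM in Ago2-/-. Dnajb9 stood at 9.86 and 9.05 FPKM in Ago2+/+ DMSO and Ago2-/- thapsigargin and at 28.2 to 35.7 FPKM elsewhere. Hyou1, the HSP110 protein of the ER, ran from 140 to 368 FPKM. Calr, calreticulin, had the smallest range of the 15 genes, 0.27. Of the 15 genes 9 had their 2 highest levels in Ago2+/+ thapsigargin and Ago2-/- tunicamycin, against 26.0% of all loci and 2 of the 9 heat shock genes, Hspa1b and Dnajb1. Whether the lists differ was not tested.

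Over the 6 groups, the loci whose levels were most like those of Hspb1 included Gm11249, Cd24a, Rps2 and Maoa, with Pearson's r of 0.998 to 0.9996 among the 1713 loci that averaged 10 FPKM or more and had a 2-fold range. Cd24a, a small glycoprotein of the cell surface, stood at 60.6 FPKM in Ago2+/+ tunicamycin and 0.00444 FPKM in Ago2+/+ DMSO. Rps2, a protein of the small ribosomal subunit, stood at 124 and 147 FPKM where Hspb1 was off and reached 2270 FPKM in Ago2-/- DMSO. Most like Hsp90ab1 were Wdr43, Znhit6, Tnfrsf12a, Fhl2 and Arhgap22, with r of 0.971 to 0.988. Wdr43, a factor of ribosome assembly, stood at 172 and 177 FPKM in Ago2+/+ tunicamycin and Ago2-/- DMSO and at 87.4 to 114 FPKM elsewhere. The 6 points behind each r share the 3 close pairs, so they carry little more than 3 distinct values, and r is given as a description.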

How the data were processed

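RNA sequencing of 18 libraries was described in 6 groups of 3. Per the methods and the submitters' processing notes, the authors mapped reads with HISAT2 2.1.0 to GRCm38 (Ensembl release 91), assembled transcripts with StringTie 1.3.4d and quantified loci with Cuffdiff 2.2.1. The deposited table holds 1 FPKM value a group and locus, with the replicates pooled by the authors, and columns of their own comparisons (fold changes, test statistics, p and q values), which were not used. The methods do not state how fragments that match several similar loci were shared, which bears on genes with near copies.

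Differences were taken in log2(FPKM + 1) over the 11929 loci that averaged 1 FPKM or more, and a difference of at least 1 (2-fold) was counted. This scale understates differences of low genes. No test was run, since the table has no replicate values. The depth is unknown, so no counting interval could be given. The members, the gene lists and the rule for named genes (all 10 members, up to 4 genes of each list with a 2-fold difference by range, the gene of smallest range, and the 5 loci most like 2 members) were chosen with earlier results of these data known. Some genes that this rule or the lists name are not reported here. The group of each library came from the source name, or from the genotype label where titles and source names disagreed. The FPKM values were read by the group names of the deposited table, AGO2 or DCR1 with the agent. Groups named AGO2 there were taken as Ago2-/- and groups named DCR1 as Ago2+/+, after the library titles. Loci were matched by symbol to GENCODE M21 for coordinates and to RefSeq promoter windows (7 of 10 members matched). Shared windows of 40 bases were counted in GENCODE M21 transcripts. The counting of differences was tested on simulated data. Python 3.11.15, pandas 2.3.3, numpy 2.4.6 and matplotlib 3.10.9 were used.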

Additional observations from a re-analysis of the deposited data

Results flagged for a closer look

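Hspb1 differed in opposite directions under the genotype labels: with thapsigargin against DMSO its log2(FPKM + 1) differed by 5.87 in Ago2+/+ and by -6.67 in Ago2-/-, a difference between the labels of -12.5. It stood out because both changes were past 2-fold and of opposite sign. Ago2+/+ DMSO and Ago2-/- thapsigargin are a close pair, with 1.87% of loci at least 2-fold apart. A gene low in both and high elsewhere differs in opposite directions here by arithmetic alone. The sizes also rest on 0.135 and 0.0687 FPKM in those groups, and with a pseudocount of 0.1 they were 8.12 and -9.33. With 1 value a group the difference was not tested.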

How the results depend on the processing

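Counts of heat shock genes past 2-fold in the 7 comparisons, and by range, stayed within 1.5 times with a pseudocount of 0.1, with none, without the minimum level, with FPKM rescaled to equal medians (shifts of at most 0.02) and without the Hspa8 locus, which other genes share. Summing Hspa1a and Hspa1b, an alternative chosen after seeing the data, changed none of these counts beyond that either. The share of all loci was less steady. For the range it was 38.0% with a pseudocount of 0.1, 37.1% with none and 8.82% without the minimum, against 32.3%. Without the minimum Hspa1a also counted, giving 4 of 10 with tunicamycin against DMSO in Ago2-/- (4.75% of all loci). Ago2-/- against Ago2+/+ with tunicamycin then gave 3 of 10 (4.61%), and the range 5 of 10. With a minimum mean of 10 FPKM, Hspa1b dropped out and 3 counts fell to 1 of 8. They were thapsigargin against DMSO in Ago2+/+ (8.12% of all loci at that minimum), and Ago2-/- against Ago2+/+ with tunicamycin (11.4%) and with thapsigargin (9.20%). At 1.5-fold the range count was 6 of 9, against 63.6% of all loci, and 5 counts were larger by over 1.5 times. With tunicamycin against DMSO they were 3 in Ago2+/+ (29.2% of all loci) and 6 in Ago2-/- (36.9%). With thapsigargin against DMSO in Ago2-/- the count was 2 (31.2%). For Ago2-/- against Ago2+/+ the counts were 3 with DMSO (29.4%) and 6 with tunicamycin (35.8%). The share of all loci past the cut thus rose as well. Without a pseudocount Hspa1a was past 2-fold in all 7 comparisons. No difference past 2-fold changed sign, but these settings could not have changed one. A pseudocount, a minimum or a cut leaves the sign as it is, and the rescaling shifts were too small. Leaving out Hspa8 could not change a count either, since it was past 2-fold in no comparison.

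No paired analysis was possible because the table has 1 pooled value a group. No replicate was left out, for the same reason. Depth and replicate error are unknown for every value, and Hspa1a and the low groups of Hspb1 also rest on levels near 0.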
